A study of Mus musculus with 24 samples.

Results

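The genes described here are 8 members of the circadian clock, measured in prefrontal cortex: the activators Arntl, Clock, Npas2 and Rora, and the output factors Dbp, Tef, Hlf and Nfil3. They were taken by name from the deposited table, which held all 8 among its 18240 genes, and all 8 passed the filter on low values. The libraries came from C57BL/6J mice at postnatal day 40 and fell into 4 arms of 6, each with 3 female and 3 male libraries. The first arm was wild type (WT) on vehicle. The others carried the heterozygous Dyrk1a+/I48X genotype (HT), in which 1 copy of the gene for the kinase Dyrk1a bears the I48X allele, and received vehicle, fluoxetine or lithium. Fluoxetine is a serotonin reuptake inhibitor and lithium a mood stabiliser. The sources used here give no dose, length of treatment or time of day at collection, so clock phase is described only through the levels of the genes relative to each other. WT mice on either drug were not analysed here.

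In the mammalian clock, the protein encoded by Arntl (BMAL1) pairs with CLOCK or its relative NPAS2 and activates genes with E-box elements, among them Per, Cry, Dbp and the Nr1d genes. RORA activates Arntl, and the NR1D proteins repress it at the same kind of element. DBP, TEF and HLF are the proline and acidic amino acid-rich basic leucine zipper (PAR-bZIP) factors, which activate genes through D-box elements that NFIL3 represses. In many tissues Arntl transcript is high when Dbp transcript is low, and the daily swing of Dbp is wider than those of Tef and Hlf.

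Depth, recovered from the steps of the normalised values, ran from 24133344 to 35940460 reads per library. Markers of cortical excitatory neurons, 6 of 6, were present in every library, with a summed level from 90929 to 186535 normalised counts. Those of inhibitory neurons summed to 16175 to 40612. Striatal markers reached 36979 in 1 HT vehicle library (male 1) and at most 17749 in the WT libraries. The read total of Dyrk1a was 2200 ± 90.8 normalised counts in WT vehicle, 2355 ± 61.2 in HT vehicle, 2476 ± 97.5 in HT fluoxetine and 2447 ± 113 in HT lithium (SD, n = 6 each). The mean was thus higher, not lower, in every arm labelled HT. A gene total does not tell the alleles apart, so it is no check of the genotype labels, and groups are named as labelled. The levels of 10 olfactory bulb markers varied widely. Their summed level was 29698 to 40836 in 6 libraries and 4799 to 17882 in the other 18. The 6 were HT fluoxetine female 1 and male 1, HT lithium male 1, HT vehicle female 2 and male 3, and WT vehicle female 2. Tbx21 was at 0 in 2 libraries and Eomes in 1. All 10 bulb markers averaged lower in HT vehicle than in WT (median log2 difference -0.78). Against HT vehicle, 10 of 10 were higher on fluoxetine (0.70) and 6 of 10 lower on lithium (-0.15). Against WT, 10 of 10 were lower on lithium (-0.63) and 5 of 10 on fluoxetine (0.01). Of 10 striatal markers, 9 were higher in HT vehicle than in WT. Against HT vehicle, 10 were lower on fluoxetine and 9 on lithium. Limma called 0 of these. All 6 lithium libraries and 1 fluoxetine library carried the batch label P40_L2, and the other 17 carried P40_L1. In bulk tissue fewer cells of a type and less RNA per cell cannot be told apart. The labels do not say whether each library is a separate animal, and the p-values therefore describe spread between samples that could be technical.

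The PAR-bZIP activators were the most abundant members per length, and Arntl and Nfil3 the least. Per kilobase of exon (GENCODE M21, union of exons), mean normalised count over the 24 libraries was 1278 ± 110 for Tef, 938 ± 103 for Dbp and 804 ± 121 for Hlf (SD, n = 24). These levels lay at the 94.5th, 92.2nd and 90.5th percentiles of the genes tested. Npas2 at 216 ± 40.9, Clock at 198 ± 10.5 and Rora at 121 ± 11.2 counts per kilobase followed. Arntl at 97.7 ± 8.84 and Nfil3 at 95.2 ± 41.5 were lowest and did not differ beyond their spread. The SDs over libraries also overlapped for Npas2 and Clock and for Dbp and Hlf. All members were read in the same libraries, and within libraries these pairs were ordered. Dbp lay above Hlf per kilobase in most libraries and in the mean of every arm. Npas2 lay above Clock in 18 libraries and below it in the 6 highest in olfactory bulb markers. The log2 ratio of their counts was -1.46 to -0.998 in the 18 and -2.18 to -1.65 in the 6. The same order of groups held in every arm, with Tef between 1216 and 1323 counts per kilobase and Nfil3 between 83.1 and 101.

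Members differed widely in spread. Within groups of 3, the SD of log2 counts was 0.55 for Nfil3 and 0.35 for Npas2, against a median of 0.18 over all genes tested. Clock was the steadiest member with an SD of 0.080, at percentile 10.3 of the genes tested. Dbp, Tef and Arntl lay between 0.11 and 0.12. The highest library exceeded the lowest 3.98-fold for Nfil3, 2.33-fold for Npas2 and 1.26-fold for Clock.

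**Figure D1:**
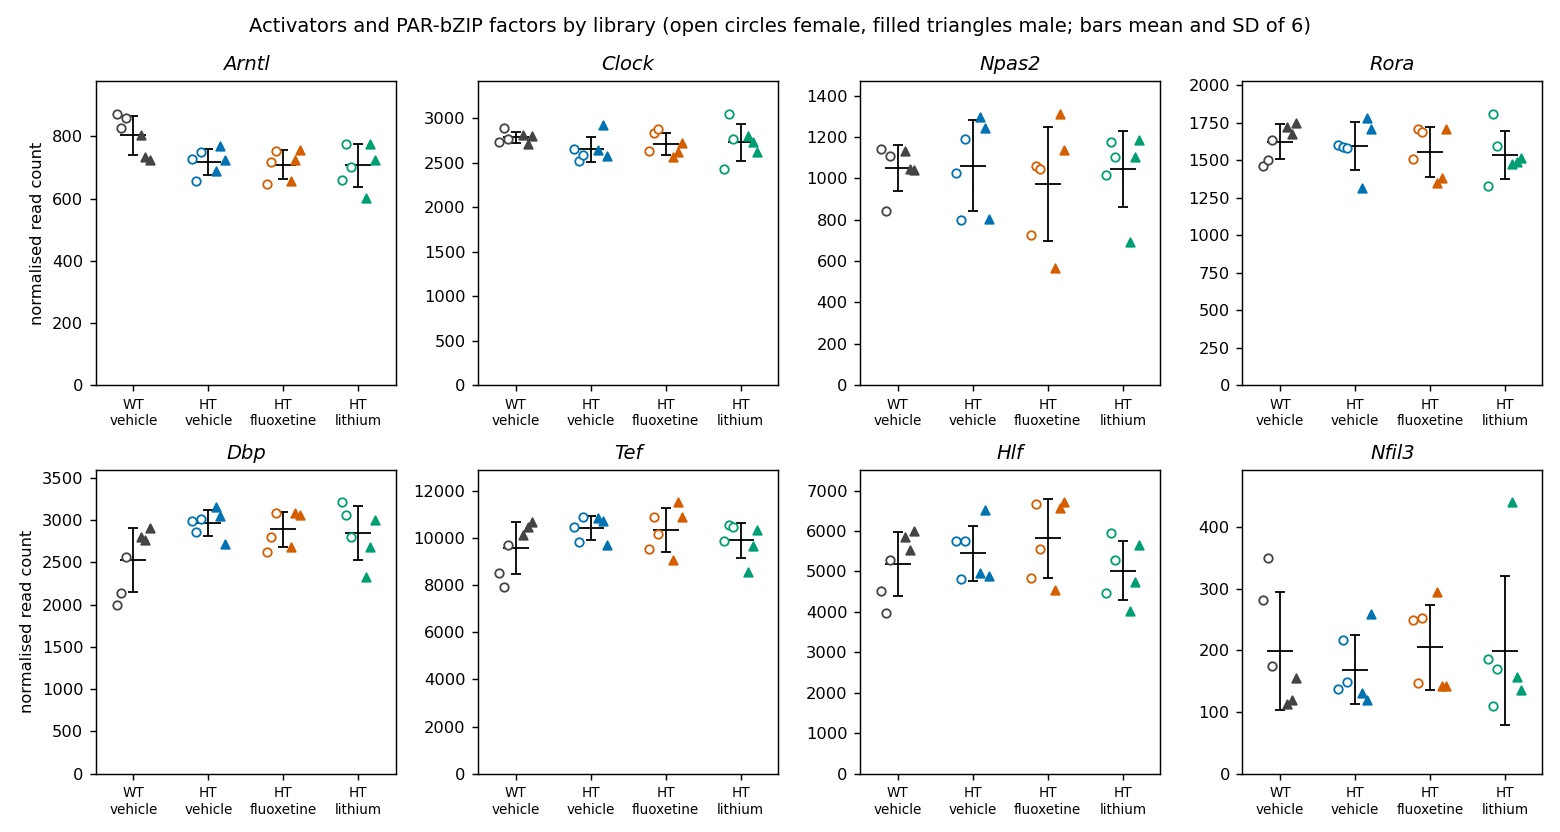
Normalised read count (vertical axes, from 0) of each member in the 24 libraries by arm, with open circles for females, filled triangles for males, and bars for the mean and SD of 6. Dbp and Tef are lowest in WT vehicle females 1 and 2, Arntl is highest in the WT vehicle females, and all arms overlap for every member.

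The genotype comparison asked whether the untreated heterozygotes differed from wild type. On average, Dbp was higher and Arntl lower in HT vehicle, and no member passed the test over all genes. Limma called 0 of 8 members and 0% of the 16825 genes tested at an adjusted p under 0.05. An unadjusted p under 0.05 was found for 2 members, Dbp and Arntl, against 2.7% of all genes. The arms overlapped for all 8 members, and 0.19% of all genes had arms that did not overlap.

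Among the activators, Arntl encodes the partner common to both activator complexes. In WT vehicle it read 874, 829 and 860 normalised counts in females and 804, 733 and 725 in males. In HT vehicle it read 726, 656 and 749 in females and 688, 771 and 723 in males. All 6 HT libraries lay below the WT mean and 3 below the lowest WT library, but the WT males sat within the HT range apart from male 1. The arm means were 804 ± 63.1 and 719 ± 41.5 (SD, n = 6), and the log2 fold change was -0.16 ± 0.06 (SE, limma adjusted p = 1.0).

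Clock, the usual partner of Arntl, was 2706, 2783 and 2884 (lowest, median, highest) in WT vehicle and 2513, 2615 and 2923 in HT vehicle. Of the 6 HT libraries, 5 were under the lowest WT library, and male 2 was above the highest. Its log2 difference was -0.07 ± 0.05. Npas2, which can stand in for Clock in forebrain, averaged 1051 ± 112 in WT and 1061 ± 220 in HT vehicle, a log2 difference of -0.01 ± 0.19. Rora, the activator of Arntl, averaged 1623 ± 118 and 1596 ± 158, a log2 difference of -0.03 ± 0.08. For neither gene did the arms stand apart.

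Of the output factors, Dbp had the smallest p of the members. Its WT libraries read 2001, 2141 and 2564 normalised counts in females and 2798, 2766 and 2905 in males. Its HT vehicle libraries read 2984, 2859 and 3015 in females and 3150, 3052 and 2721 in males. All 6 HT libraries exceeded the WT mean and 4 exceeded every WT library. The low values were those of the WT females, and the WT males overlapped the HT libraries. Means were 2529 ± 374 and 2964 ± 152 (SD, n = 6), a log2 fold change of 0.24 ± 0.07 with a 95% interval of 0.10 to 0.39 (limma unadjusted p = 0.00259, adjusted p = 1.0).

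Tef followed Dbp at a smaller size. It was 7931, 9905 and 10657 (lowest, median, highest) in WT vehicle and 9713, 10595 and 10864 in HT vehicle, with all 6 HT libraries above the WT mean of 9567. Its log2 difference was 0.13 ± 0.07, and the WT males, at 10412 ± 280, matched the HT mean of 10408 ± 515. Hlf, the third PAR-bZIP factor, averaged 5194 ± 793 in WT and 5448 ± 675 in HT vehicle, a log2 difference of 0.07 ± 0.12. Nfil3, the repressor at D-boxes, averaged 199 ± 95.8 and 168 ± 55.9, a log2 difference of -0.17 ± 0.29. The intervals of Hlf and Nfil3 ran from -0.17 to 0.32 and from -0.78 to 0.45, so changes of those sizes were not detectable here.

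**Figure D2:**
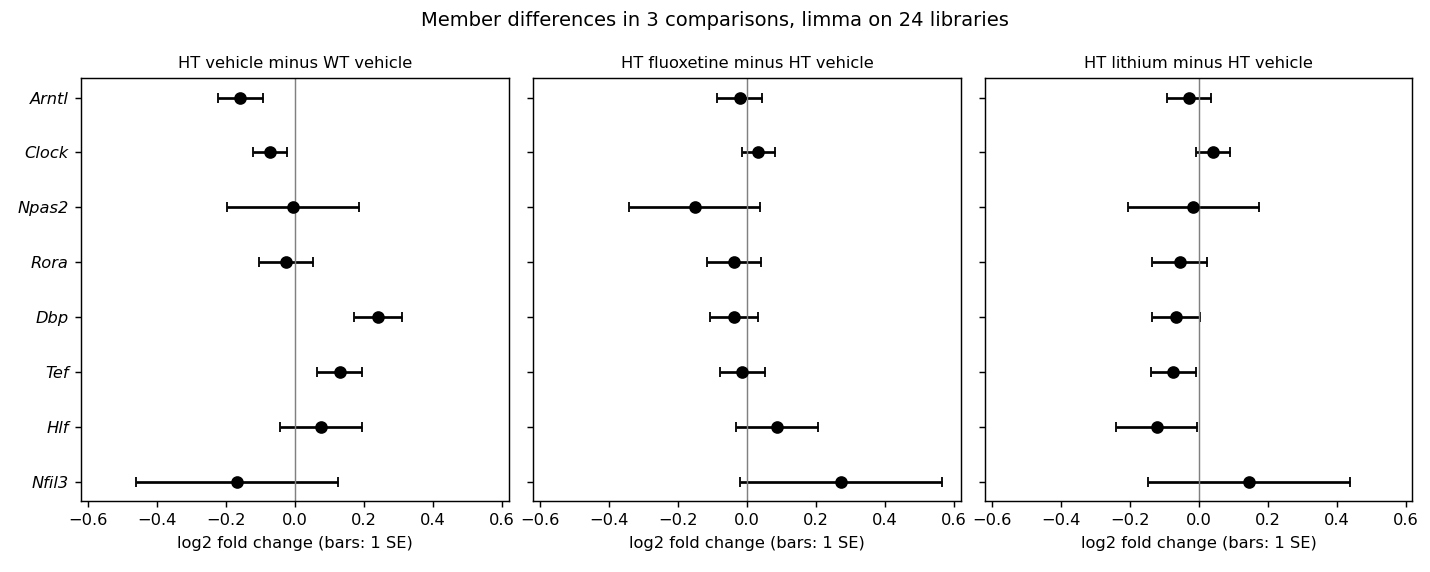
Log2 fold change of each member (horizontal axes) with bars of 1 SE in the genotype, fluoxetine and lithium comparisons, from limma on 24 libraries. Dbp at 0.24 and Arntl at -0.16 in the genotype comparison lie farthest from 0 relative to their SE, and no member passed the adjusted threshold.

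The ratio of Dbp to Arntl joins an output that peaks at one phase to an activator that peaks near the opposite one. Its log2 value was 1.64 ± 0.32 in WT vehicle, 2.04 ± 0.10 in HT vehicle, 2.03 ± 0.04 in HT fluoxetine and 2.01 ± 0.16 in HT lithium (SD, n = 6). WT females 1, 2 and 3 stood at 1.19, 1.37 and 1.58, and WT males 1, 2 and 3 at 1.80, 1.92 and 2.0. The 18 HT libraries ranged from 1.79 to 2.28. All 3 WT females thus lay below every HT library, while the WT males lay inside the HT range. The fluoxetine libraries were the tightest, from 1.97 to 2.08. This split by sex was seen after the values were, and the ratio was given no test because both genes were chosen with the results known.

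**Figure D3:**
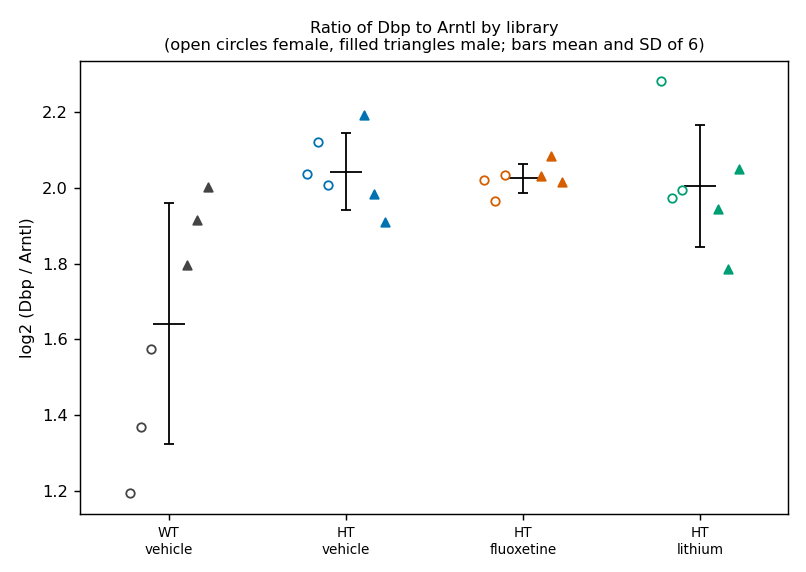
Log2 ratio of Dbp to Arntl (vertical axis) by arm, with open circles for females, filled triangles for males, and bars for the mean and SD of 6. The WT vehicle females sit from 1.19 to 1.58, below all 18 HT libraries, and the WT vehicle males from 1.80 to 2.0 lie among them.

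WT vehicle females 1 and 2 held the lowest Dbp values of the 24 libraries. Without them, a choice made after seeing those values that by itself shrinks the difference, the log2 difference of Dbp was 0.14 ± 0.08, that of Tef 0.05 ± 0.08 and that of Arntl -0.16 ± 0.08, and Nfil3 turned to 0.11. The mean ratio of Dbp to Arntl in WT was then 1.82 ± 0.18 (n = 4). With the olfactory bulb score as a covariate, Dbp was 0.22 ± 0.06 and Arntl -0.19 ± 0.05, with limma adjusted p = 0.307 for both. Without the 6 libraries highest in that score, Dbp was 0.27 ± 0.07 and Arntl -0.14 ± 0.06.

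The fluoxetine comparison set the drug against vehicle within the heterozygotes. The activators and the PAR-bZIP factors differed from HT vehicle by -0.15 to 0.09 on the log2 scale, and Nfil3, the noisiest member, was 0.27 ± 0.29 higher. Limma called 0 of 8 members and 0.0119% of all genes, and 0 members against 5.71% of all genes had an unadjusted p under 0.05. All 8 members overlapped between the arms, and 0.47% of all genes did not.

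Dbp averaged 2889 ± 211 normalised counts on fluoxetine, with libraries at 2626, 2803 and 3083 in females and 2683, 3080 and 3061 in males. Of these, 3 lay above the HT vehicle mean and 3 below it. The log2 difference was -0.04, with a 95% interval of -0.18 to 0.11. Arntl averaged 709 ± 47.2, with libraries at 647, 717 and 752 in females and 656, 726 and 756 in males. Its log2 difference was -0.02, with a 95% interval of -0.16 to 0.11. Neither gene had a fluoxetine library above the highest HT vehicle library, and each had 2 below the lowest.

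Clock, at 2709 ± 127, differed from HT vehicle by 0.03 ± 0.05 and Tef, at 10337 ± 926, by -0.01 ± 0.07. Hlf averaged 5820 ± 973, a difference of 0.09 ± 0.12, with 3 libraries above the highest HT vehicle library and 1 below the lowest. Npas2 averaged 974 ± 276, a difference of -0.15 ± 0.19, with female 1 at 727 and male 1 at 564. Those were the 2 fluoxetine libraries highest in olfactory bulb markers, and they also read 249 and 295 for Nfil3 and 4842 and 4554 for Hlf. With a bulb score term, these differences were -0.05 for Npas2, 0.10 for Nfil3 and 0.16 for Hlf. Within batch P40_L1, which leaves out fluoxetine female 3, Dbp differed by -0.07, Arntl by -0.04, Npas2 by -0.19 and Nfil3 by 0.21.

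The lithium comparison was of the same form. Before any account of batch, members again lay close to HT vehicle. The widest log2 differences were -0.12 ± 0.12 for Hlf and 0.15 ± 0.29 for Nfil3. Limma called 0 of 8 members and 0.0119% of all genes, and 0 members against 2.75% of all genes had an unadjusted p under 0.05. All 8 members overlapped, and 0.166% of all genes did not. Lithium and the batch cannot be told apart beyond a batch term that rests on 1 fluoxetine library. With that term Dbp differed from HT vehicle by -0.25 ± 0.16 and from WT by -0.01 ± 0.16. Over all alternatives run, the difference from HT vehicle ranged from -0.25 to 0.32 for Nfil3, -0.26 to 0.11 for Npas2 and -0.17 to 0.02 for Arntl.

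Dbp averaged 2845 ± 318 on lithium, with females at 3210, 3055 and 2799 and males at 2320.5, 2682 and 3004. The highest and the lowest HT values of Dbp both fell in this arm. Its log2 difference was -0.07, with a 95% interval of -0.21 to 0.08. Arntl averaged 707 ± 68.2, with females at 660, 777 and 701 and males at 602, 777 and 725, a difference of -0.03 with an interval of -0.16 to 0.11. Tef differed by -0.07 ± 0.07, Rora by -0.06 ± 0.08, Clock by 0.04 ± 0.05 and Npas2 by -0.02 ± 0.19. Lithium male 1, high in bulb markers, read 440 for Nfil3 and 692 for Npas2. The other 5 lithium libraries were at 111 to 186 for Nfil3 and at 1014 to 1185 for Npas2.

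Set beside untreated WT, Dbp was higher and Arntl lower on average in both drug arms, before any account of batch. These comparisons share the WT libraries with the genotype comparison, so their values are given side by side and not as added evidence. Dbp differed from WT by 0.20 ± 0.07 on fluoxetine and by 0.18 ± 0.07 on lithium. Arntl differed by -0.18 ± 0.06 and -0.19 ± 0.06. All lithium libraries were of batch P40_L2 and all WT libraries of P40_L1. With a batch term, lithium differed from WT by -0.01 ± 0.16 for Dbp, near 0 for its SE, and by -0.33 ± 0.15 for Arntl. In each comparison limma called 0 of 8 members and 0% of all genes, with 2 members at an unadjusted p under 0.05 against 4.38% of all genes for fluoxetine and 2.56% for lithium. No member had arms that did not overlap, against 0.232% and 0.214% of all genes. Without WT vehicle females 1 and 2, which leaves only female 3 among the WT females, Dbp differed by 0.10 and 0.07 and Arntl by -0.19 and -0.19. Within batch P40_L1, fluoxetine differed from WT by 0.17 for Dbp and -0.20 for Arntl.

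The design also allowed the sexes to be compared. Averaged over the arms, males differed from females by 0.06 ± 0.05 for Dbp, -0.04 ± 0.05 for Arntl and -0.20 ± 0.21 for Nfil3. Limma called 0 of 8 members and 0.0832% of all genes, and 0 members against 2.59% of genes had an unadjusted p under 0.05. In WT vehicle, Dbp was 2235 ± 293 in females and 2823 ± 72.7 in males (SD, n = 3). In HT vehicle it was 2953 ± 82.9 and 2974 ± 225.

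The genotype effect in males less that in females was -0.34 ± 0.14 for Dbp (limma unadjusted p = 0.0256, adjusted p = 0.996). It was -0.25 ± 0.13 for Tef, -0.35 ± 0.24 for Hlf and 0.97 ± 0.59 for Nfil3. Among the activators it was 0.21 ± 0.13 for Arntl, -0.17 ± 0.16 for Rora, 0.08 ± 0.10 for Clock and 0.07 ± 0.38 for Npas2. Limma called 0 of 8 members and 0% of all genes, and 1 member against 2.17% of genes had an unadjusted p under 0.05. That member was Dbp, and its value describes the same WT females whose low levels are given above. Without WT vehicle females 1 and 2, Dbp was -0.13 and Nfil3 0.41. For the sex difference in the fluoxetine and lithium effects, 0 of 8 members were called, against 0% of genes in each, and 0 had an unadjusted p under 0.05, against 1.07% and 1.63%.

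The count tests on recovered reads called 0 of 8 members in all of these comparisons too. Of all genes, edgeR called 0.0119% for fluoxetine, 0.0773% for males against females and 0% elsewhere. DESeq2 called 0.0951% for fluoxetine, 0.0178% for lithium, 0.107% and 0.0297% for these drugs against WT, 0.119% for males against females, 0.00594% for the sex difference in the genotype effect and 0% elsewhere. Both gave Dbp and Arntl an unadjusted p under 0.05 in the 3 comparisons with WT, and Dbp in the sex difference of the genotype effect.

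Within arms, several members followed the olfactory bulb markers. Nfil3 was higher, and Hlf, Npas2, Tef and Arntl lower, in libraries with more bulb marker RNA. The score was the mean log2 level of 10 markers, the means of the 8 groups were removed, and 16 relations (8 members with the bulb score and with a striatal score) were tested by 100000 permutations within groups. Over 24 libraries Nfil3 had Pearson's r = 0.89 and Spearman's rho = 0.88 (permutation p = 1e-05 for rho, the smallest these permutations can give, adjusted p = 0.00016 for both). Hlf had r = -0.88 and rho = -0.89 (permutation adjusted p = 0.00024 for both).

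Npas2 had r = -0.82 and rho = -0.81 (permutation adjusted p = 0.00123 and 0.000267). Tef had r = -0.77 and rho = -0.80 (permutation adjusted p = 0.00172 and 0.00092), and Arntl r = -0.74 and rho = -0.70 (permutation adjusted p = 0.00746 and 0.0167). Dbp, with r = -0.54 and rho = -0.51, did not pass (permutation adjusted p = 0.0537 and 0.0876), nor did Clock at r = -0.48 and Rora at r = -0.44 (permutation adjusted p = 0.0872 and 0.176). The 5 relations that passed held without the 2 libraries farthest from the median score, where r ran from -0.86 for Hlf to 0.88 for Nfil3. They also kept their sign in each batch, with Nfil3 at 0.90 in both and Arntl at -0.82 in P40_L1 and -0.71 in P40_L2. P40_L2 held only 7 libraries, group means were removed before the split, and the batches were not tested apart.

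The 6 libraries with most bulb marker RNA stood apart for Npas2. It read 564 to 840 in them and 1014 to 1313 in the other 18, with no overlap, and Nfil3 read 216 to 440 against 111 to 282. Among the 18 alone, with group means removed, r was 0.80 for Nfil3, -0.77 for Hlf, -0.64 for Rora, -0.54 for Clock and -0.51 for Arntl. It was -0.36 for Npas2, -0.30 for Tef and 0.05 for Dbp. The score ran from 5.21 to 9.87 in the 18 and from 10.76 to 11.31 in the 6, and the effect of range on r was not tested. Inside the 6, without removal of group means, r was -0.97 for Rora, -0.76 for Npas2, -0.54 for Tef and -0.46 for Hlf. It was -0.39 for Dbp, -0.15 for Arntl, 0.34 for Clock and 0.50 for Nfil3. The log2 ratio of Dbp to Arntl had a median of 1.98 in the 6 and 2.0 in the 18. With the striatal score, no member passed by r, and Npas2 passed by rho (r = 0.56, rho = 0.58, permutation adjusted p = 0.0537 and 0.0262), with r = 0.06 within P40_L2. The part of either tissue in the members' levels was not tested beyond these values.

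**Figure D4:**
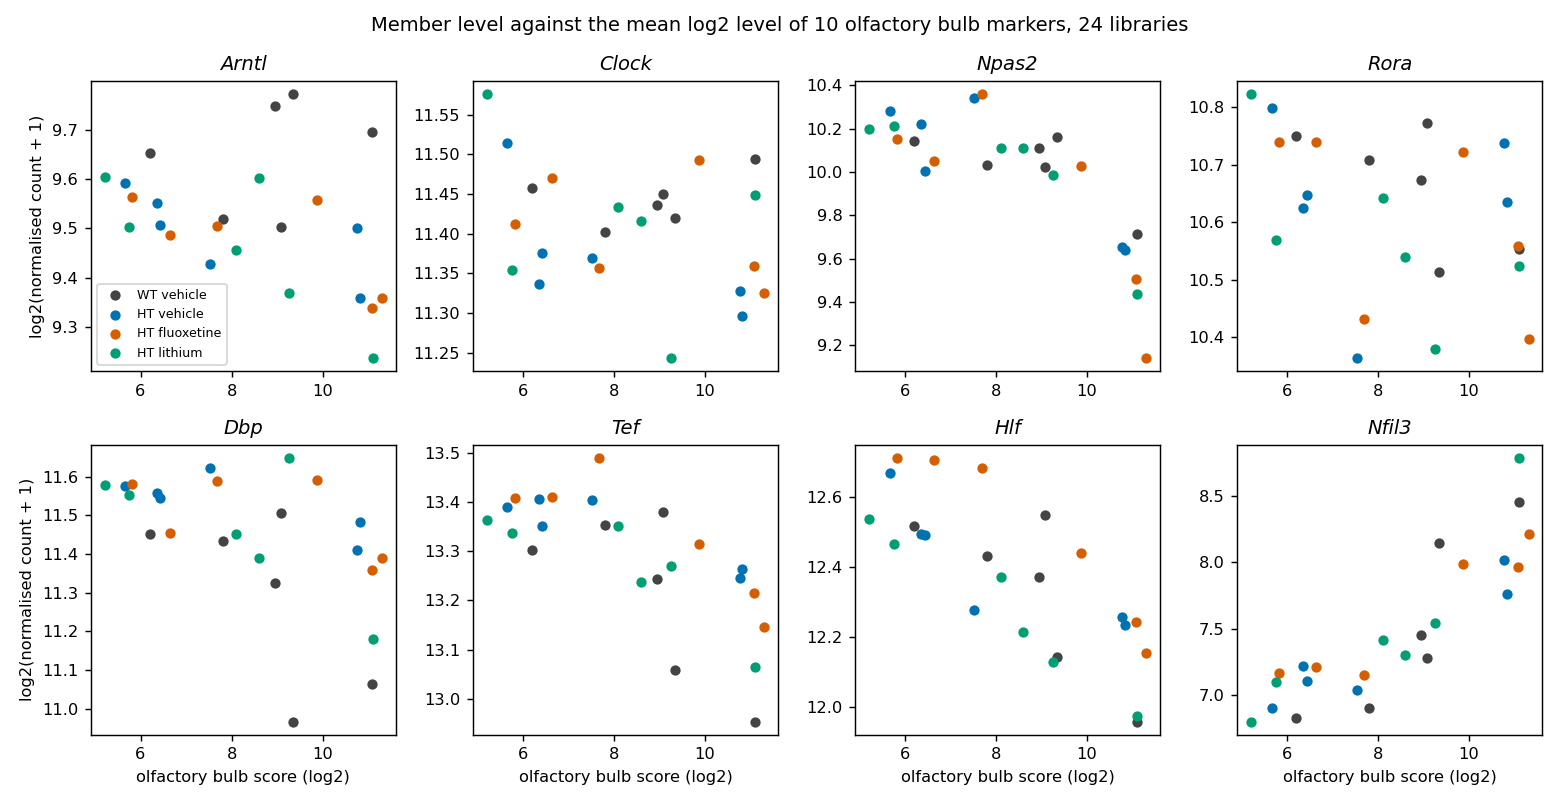
Log2 of the normalised count plus 1 of each member (vertical axes) against the mean log2 level of 10 olfactory bulb markers (horizontal axes), 1 point per library, coloured by arm. Nfil3 climbs with the score (r = 0.89 with group means removed), Hlf declines (r = -0.88), and Npas2 is low in the 6 libraries at the right (564 to 840 normalised counts).

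The members also varied together. Tef, Hlf, Npas2 and Nfil3 each followed the olfactory bulb score too, at r = -0.77, -0.88, -0.82 and 0.89. The pairs were not adjusted for that score, and its part in them was not tested. Of the 28 pairs, with group means removed, Npas2 and Tef had r = 0.90 and rho = 0.86 (permutation adjusted p = 0.000933 and 0.00084), and Tef and Hlf r = 0.88 and rho = 0.88 (permutation adjusted p = 0.00084 and 0.00056). Dbp went with Tef at r = 0.75 and rho = 0.71 (permutation adjusted p = 0.0129 and 0.0173). Nfil3 ran opposite to the PAR-bZIP factors, at r = -0.87 with Tef, -0.84 with Hlf and -0.69 with Dbp. Spearman's coefficients for these were -0.87, -0.85 and -0.58, with permutation adjusted p = 0.00118, 0.00056 and 0.0611, so that of Dbp did not pass by rank.

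Arntl and Dbp did not vary in opposite directions within groups. Their r was 0.45 and their rho 0.40 (permutation adjusted p = 0.144 and 0.162), with r = 0.25 without the 2 libraries farthest from the median of Arntl, 0.34 in P40_L1 and 0.55 in P40_L2. Clock and Rora, at r = 0.69 and rho = 0.56 (permutation adjusted p = 0.0528 and 0.0619), did not pass. Without the 2 farthest libraries r was 0.84 for Npas2 with Tef, 0.83 for Tef with Hlf and 0.66 for Dbp with Tef, and all 3 kept their sign in both batches.

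**Figure D5:**
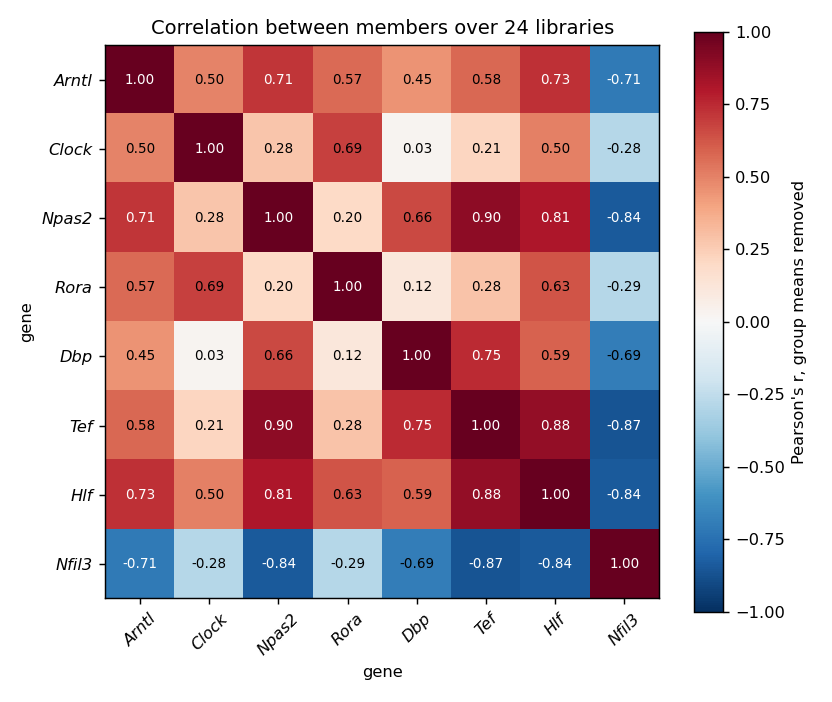
Pearson's r between the 8 members (both axes) over 24 libraries after removing the 8 group means, with colour from -1 in blue to 1 in red. Npas2, Tef and Hlf form a block of positive values from 0.81 to 0.90, Nfil3 is negative with every other member, and Arntl with Dbp is 0.45. Values were not adjusted for the olfactory bulb score.

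The genes whose log2 level followed each member most closely within groups were named by rank of r over the 24 libraries, as a description. For Nfil3 they were Fosl2 (r = 0.97), Tshz2 (0.96) and Maml1 (0.95), and for Npas2 Phactr1, Git1 and Tmem246 (0.98 each). For Hlf they were Emc2 (0.98), Fgfr1op2 and Tspan5 (0.97 each), and for Tef Mthfd1l, Wwc2 and Rab3d (0.95 each). For Rora they were Zdhhc21 (0.94), Gm10033 and Gm20300 (0.91 each). Arntl went most closely with Arl2bp (0.91), Sertm1 and 1700001L05Rik (0.90 each), and Clock with Arfgef1 (0.85), Pura (0.84) and Atp13a3 (0.83). For Dbp they were E030013I19Rik (0.84), Pomgnt1 and Kiss1r (0.83 each). No member was among the closest 3 of another.

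As a description, the 250 bases before each annotated start were searched on both strands for elements of the clock. RefSeq on GRCm38.p6 gave 12 windows for the 8 members. The motifs were the E-box CACGTG, the D-box TTATGTAA, TTACATAA or TTACGTAA, and the ROR and NR1D element TAGGTCA or TGGGTCA. Tef had an E-box in 2 windows and Nfil3 that element in 1. The sites are shown 5′ to 3′ on the gene's strand with the motif in capitals:
Tef, upstream start (chr15:81802534-81802563, plus strand): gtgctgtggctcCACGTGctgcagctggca
Tef, downstream start (chr15:81811264-81811293, plus strand): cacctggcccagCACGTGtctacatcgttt
Nfil3 (chr13:52981040-52981069, minus strand): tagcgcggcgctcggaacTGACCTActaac
The motif began 127 and 138 bases before the Tef starts and 12 bases before the Nfil3 start, where it reads as the reverse complement of TAGGTCA. GENCODE M21 places the upstream Tef site and the Nfil3 site in annotated exon and UTR and the downstream Tef site in an intron. Of 32851 windows of all genes, 6.02% held the E-box, 5.38% the ROR and NR1D element and 0.931% the D-box. The windows of Arntl, Clock, Npas2, Rora, Dbp and Hlf held none of these letters, which says nothing about binding elsewhere.

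The other genes of the pathway were read from lists chosen with earlier results known, and limma called none of them in the comparisons of arms. Repressors with an unadjusted p under 0.05 numbered 2 of 10 for genotype, 4 for fluoxetine and 2 for lithium, against 2.7%, 5.71% and 2.75% of all genes. Against WT they numbered 8 of 10 for fluoxetine and 1 for lithium, against 4.38% and 2.56%. Kinases, ligases and output genes together numbered 0 for genotype, 1 for fluoxetine and 1 for lithium. Of 10 repressors of the clock, 7 were higher in HT vehicle than in WT, with a median log2 difference of 0.03, against 0.00 over all genes. Ciart, a repressor of the activator complex, differed by 0.37 ± 0.14 and Per3 by 0.20 ± 0.07, each with 6 of 6 HT libraries above the WT mean (limma adjusted p = 1.0 for both). Against HT vehicle, 9 of 10 repressors were higher on fluoxetine, with a median of 0.10. Per2, a core repressor, stood at 1991 ± 157 on fluoxetine and 1477 ± 81.8 on vehicle, a log2 difference of 0.43 ± 0.08 (limma adjusted p = 0.217). All 6 fluoxetine libraries lay above the vehicle mean. DESeq2 called Per2 (adjusted p = 0.00368), as did limma with the bulb score as a term (adjusted p = 0.0230), and edgeR did not (adjusted p = 0.240). Per1, its relative, differed by 0.28 ± 0.08 (limma adjusted p = 0.546). Against WT, all 10 repressors were higher on fluoxetine, with a median of 0.25, and DESeq2 called Per1 and Per2 (adjusted p = 0.0497 and 0.0432). The median difference of the 8 members on fluoxetine was -0.02 from HT vehicle and 0.03 from WT. These medians join genes of both directions, with 3 higher and 5 lower against HT vehicle and 4 and 4 against WT.

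On lithium 5 of the 10 repressors were higher than in HT vehicle, with a median of 0.00. Per1 differed by 0.20 ± 0.08 and Nr1d2, a repressor of Arntl, by -0.11 ± 0.05. Of 10 kinases and ubiquitin ligases that act on clock proteins, 8 were lower in HT vehicle than in WT and Fbxl21 was level (96.4 and 96.2 normalised counts), with a median of -0.03. Gsk3b was at -0.10 ± 0.07. They were higher in 7 of 10 on fluoxetine and 6 of 10 on lithium, with medians of 0.04 and 0.02. Of 7 output genes, 6 were higher in HT vehicle than in WT, with a median of 0.04, and Tspan4 differed by 0.20 ± 0.10. On fluoxetine 4 of 7 were higher and on lithium 2 of 7.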

How the data were processed

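The authors deposited 1 table of normalised read signal for 18240 Ensembl genes in 24 libraries. Per the labels, libraries were made with a TruSeq Stranded mRNA kit. The submitters' processing notes list DESeq2 1.19.11, R 3.6.0, Salmon 0.11.2 and the build GRCm38, with no role stated. How reads were assigned by strand is not given in the sources used here. Values were whole multiples of what 1 read is worth (100% within 0.01), which gave the reads for the count tests. In HT vehicle female 2 that worth was 0.997, so its steps could not be checked automatically.

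Limma 3.58.1 (R 4.3.3, intensity trend) was fitted to log2(value + 1) of 16825 genes with a mean of at least 10, leaving out 1415, with 8 group means (arm by sex) over all 24 libraries. Contrasts weighted the sexes equally. P-values were Benjamini-Hochberg adjusted over all genes and called under 0.05. Fold changes understate low genes. Alternatives were edgeR 4.0.16 and DESeq2 1.42.0 on the recovered reads, other pseudocounts and filters, quantile normalisation, batch, replicate and tissue terms, and libraries left out. The fit was tested on simulated data, with set fold changes larger than the genotype differences of Dbp and Arntl. No tissue or batch difference was simulated, so this does not show what size of member difference could be detected. Libraries were checked for duplicates, and the closest pair had a chi-square per gene of 4.53. GENCODE M21 matched 18227 identifiers.

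All 8 members are named. Of each pathway list the 2 genes with the smallest p in a comparison could be named, and for each member the 3 genes most like it. Fbxl21 was named besides, as a gene that was level in the genotype comparison. The members and lists were chosen with earlier results of these data known.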

Additional observations from a re-analysis of the deposited data

Results flagged for a closer look

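In 44 sets of 6 libraries (8 members and 3 ratios in 4 arms), 7 held a library whose gap to its nearest neighbour was wide for the range of its arm. Chance flags about 1 in 20 groups (5%), and the sets share libraries. Clock was 2923 normalised counts in HT vehicle male 2, against 2513 to 2655 in the other 5. Npas2 was 840 in WT vehicle female 2, against 1039 to 1144. HT lithium male 1 accounted for 2 of the member values, with Npas2 at 692 against 1014 to 1185 and Nfil3 at 440 against 111 to 186. The ratios repeated these libraries. The log2 ratio of Dbp to Nfil3 was 2.40 in HT lithium male 1, against 4.04 to 4.77. That of Npas2 to Clock was -2.01 in HT lithium male 1, against -1.38 to -1.14, and -1.78 in WT vehicle female 2, against -1.43 to -1.26. Both WT vehicle female 2 and HT lithium male 1 were among the 6 libraries highest in olfactory bulb markers.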

How the results depend on the processing

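The number of members called was 0 in all 9 contrasts under every alternative run, including edgeR and DESeq2. With 1 library left out at a time, the genotype difference of Dbp ran from 0.20 to 0.29 and that of Arntl from -0.18 to -0.13. Leaving out WT vehicle females 1 and 2 together, or the 6 libraries highest in bulb markers, was chosen after seeing the data. Among values larger than their SE there was 1 reversal of sign, to a value near 0 for its SE. Dbp in HT lithium against WT vehicle was -0.01 (-0.0085 ± 0.16) with a batch term, against 0.18, and that term rests on 1 fluoxetine library. Under it Arntl was -0.33 ± 0.15 and the lithium difference of Dbp from HT vehicle -0.25 ± 0.16. The lithium comparisons could not be run within batch P40_L1. Of the 2004 alternatives of member values, whatever the size of the value, 131 were sign changes of values smaller than their SE. DESeq2 called 16 genes for fluoxetine against HT vehicle and 18 against WT, where limma called 2 and 0, and none was a member. Replicate numbers did not pair the libraries: same-numbered libraries of a sex had a median correlation of -0.06 (36 pairs, 12 over 0.1). With a replicate block, Dbp was 0.24 ± 0.07 and Arntl -0.16 ± 0.06 in the genotype comparison, and 0 members were called.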
